A study of Mus musculus with 4 samples.

Results

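The genes described here are 10 enzymes that make, lengthen and desaturate fatty acids: Acly, Acss2, Acaca, Fasn, Elovl6, Elovl5, Scd1, Scd2, Fads1 and Fads2. They were taken by gene symbol from the platform annotation, with the feature of highest mean over the 4 arrays kept for each gene. All 10 were found among the 19938 genes named by array features that carry 1 gene symbol. The cells were MC3T3-E1, a line of pre-osteoblasts from the calvaria of C57BL/6 mice, and total RNA was measured on an Affymetrix expression array. The 4 groups were untreated cells at day 3, cells given citalopram at 100 µM at day 3, untreated cells at day 7 and cells given citalopram at 100 µM at day 7, all in proliferation medium, with 1 array per group. Citalopram is a selective serotonin reuptake inhibitor, and the series asks how exposure to it bears on osteogenesis. All groups come from a single cell line grown in multiwell plates, and the sources used here do not say whether wells were combined before hybridisation.

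Cells build saturated fatty acids in the cytosol from acetyl-CoA, which ATP citrate lyase and acetyl-CoA synthetase supply, acetyl-CoA carboxylase turns into malonyl-CoA, and fatty acid synthase condenses into palmitate. Elongases in the endoplasmic reticulum then lengthen the chain, stearoyl-CoA desaturases make monounsaturated acyl chains, and the FADS desaturases act with ELOVL5 on polyunsaturated chains taken from the diet or medium. Most of these genes are known targets of the sterol regulatory element-binding proteins (SREBPs), transcription factors that also drive cholesterol synthesis, and of the liver X receptors. The products supply membranes as well as stored fat.

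With citalopram, 8 of the 10 genes were higher than in untreated cells at day 3 and all 10 were lower at day 7. The median log2 difference between citalopram and control was 0.20 at day 3 and -0.16 at day 7. Elovl6, the elongase that extends palmitate, differed most at day 3, at 1.41-fold higher with citalopram. At day 7 the lowest were Acly (1.24-fold lower) and Fasn (1.24-fold lower). Each of these differences compares 1 array with 1 array, so it has no replicate check and no p-value at a single day.

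The 10 genes were all above the floor, the 40th percentile of genes on an array (between 5.95 and 6.01 on the log2 scale), on all 4 arrays. Over 35556 features, Pearson's r between any 2 arrays was at least 0.986 and at most 0.995. The osteoblast markers Sparc (13.84 to 14.07), Col1a1 (11.92 to 12.64) and Col1a2 (11.90 to 12.47) were bright on every array. Dlx5 (10.12 to 10.59) and Sp7 (7.71 to 8.24) were dimmer. Alpl (5.93 to 6.09) lay at the floor, and below it on both citalopram arrays. Ibsp, a marker of mature osteoblasts, lay below the floor on every array. Of 7 chondrocyte markers measured, 3 reached the floor on any array: Sox9 (10.50 to 11.01), Col2a1 (9.37 to 10.60) and Col9a1 (6.14 to 6.30). Of 9 adipocyte markers measured, 3 reached the floor on any array (Pparg, Lipe and Cebpa), the summed level of all 9 on a linear scale ran from 525.3 to 562.1 over the arrays, and the defining markers Adipoq, Plin1, Cidec and Fabp4 were below the floor on all 4 arrays. Of 19 mitosis genes measured, 19 were lower with citalopram at day 3 (median -0.24) and 19 at day 7 (median -0.64), and the part of this difference in the values below was not tested. In RNA from whole cultures, fewer cells of a kind and less RNA per cell cannot be told apart.

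RefSeq's promoter table (GRCm38.p6) held 7 of the 10 genes; Scd1, Scd2 and Fads1 were not among them. The 250 bases before the start site are shown for 4 genes that differ in the response described below: Fasn, lowest among the members at day 7 together with Acly; Elovl6, highest at day 3; Fads2, high at day 3 and low at day 7; and Elovl5, lower at both days. Capitals mark CCAAT or its reverse complement ATTGG, the letters of the CCAAT box bound by NF-Y, a factor that works beside SREBPs, and ATCACCC, the first letters of a sterol regulatory element that SREBPs bind. The windows are chr11:120824548-120824797 on the minus strand for Fasn, chr3:129532136-129532385 on the plus strand for Elovl6, chr19:10101504-10101753 on the minus strand for Fads2 and chr9:77917115-77917364 on the plus strand for Elovl5, each written 5′ to 3′ along its gene. The start site is that of the promoter table; for Fasn and Acaca it is not at the end of the gene in RefSeq's gene table, so positions in these 2 windows count from the promoter table's start alone.
Fasn: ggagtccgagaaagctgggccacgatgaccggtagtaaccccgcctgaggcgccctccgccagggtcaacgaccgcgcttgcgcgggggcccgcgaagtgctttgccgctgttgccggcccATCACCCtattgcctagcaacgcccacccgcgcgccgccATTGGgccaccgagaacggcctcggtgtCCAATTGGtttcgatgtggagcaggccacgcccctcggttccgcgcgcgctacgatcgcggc
Elovl6: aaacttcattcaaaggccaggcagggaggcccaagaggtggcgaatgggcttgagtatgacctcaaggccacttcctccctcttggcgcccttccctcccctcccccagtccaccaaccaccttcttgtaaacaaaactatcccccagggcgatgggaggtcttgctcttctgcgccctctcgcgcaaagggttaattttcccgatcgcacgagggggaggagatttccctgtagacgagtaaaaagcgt
Fads2: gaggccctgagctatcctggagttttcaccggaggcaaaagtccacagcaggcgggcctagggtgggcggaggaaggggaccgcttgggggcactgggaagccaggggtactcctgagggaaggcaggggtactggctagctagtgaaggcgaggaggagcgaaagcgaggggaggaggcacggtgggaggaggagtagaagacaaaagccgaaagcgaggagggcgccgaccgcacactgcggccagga
Elovl5: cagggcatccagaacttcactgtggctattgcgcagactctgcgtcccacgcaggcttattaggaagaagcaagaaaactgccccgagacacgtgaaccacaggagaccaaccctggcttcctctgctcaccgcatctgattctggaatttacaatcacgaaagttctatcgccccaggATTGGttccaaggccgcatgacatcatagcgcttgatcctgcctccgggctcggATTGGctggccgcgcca

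The Fasn window held ATCACCC once, 129 to 123 bases before the start site of the promoter table, and 3 matches to CCAAT on either strand, 2 of which overlap. Elovl5 held 2 matches to CCAAT and 1 to the E-box CACGTG, 161 to 156 bases before the start. Acss2, not shown, held 1 match to CCAAT and 4 to the GC box GGGCGG, and Acly held 4 matches to GGGCGG. Fads2 held 1 match to GGGCGG, and the windows of Elovl6 and, at the start site the promoter table uses, Acaca held none of the motifs searched. The sterol element TCACNCCAC was in 0 of the 7 windows. Searched on both strands of the 250-base windows of 32851 promoters, ATCACCC was found in 2.28%, TCACNCCAC in 1.05%, CCAAT in 33.9%, CACGTG in 6.02% and GGGCGG in 32.7%. ATCACCC was added to the search with the Fasn sequence in view, a match is only a match of letters, and elements outside these windows were not searched.

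The supply of acetyl-CoA was represented by Acly and Acss2. Acly, which splits exported citrate, measured 10.49 in control against 10.56 with citalopram at day 3, and 10.63 in control and 10.31 with citalopram at day 7 (log2 expression values, here and for the other genes). Its values at day 3 were close to each other, and the citalopram array at day 7 was the lowest of the 4. The log2 difference with citalopram was 0.07 at day 3 and -0.32 at day 7. Acss2, which activates acetate, measured 7.63 and 7.77 in control and citalopram at day 3, and 7.71 and 7.66 at day 7. It had the smallest range over the 4 arrays of the 10 genes (0.14), with differences of 0.14 and -0.06.

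Acaca and Fasn carry out the committed step and the chain assembly. Acaca, acetyl-CoA carboxylase alpha, measured 9.53 in control against 9.47 with citalopram at day 3, and 9.90 and 9.77 at day 7. Both day 7 arrays were above both day 3 arrays, and citalopram was lower at each day (differences of -0.06 and -0.13). Acaca was the only member with 2 features, and the dimmer one gave -0.02 at day 3 and -0.49 at day 7, so the size of the day 7 difference depended on the feature. Fasn, fatty acid synthase, measured 10.37 in control against 10.48 with citalopram at day 3, and 10.83 and 10.53 at day 7. The untreated array at day 7 stood above the other 3, and the differences with citalopram were 0.11 and -0.30.

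The elongases Elovl6 and Elovl5 did not show the same course. Elovl6 measured 9.85 in control against 10.34 with citalopram at day 3, and 9.81 in control and 9.60 with citalopram at day 7. The 2 untreated arrays nearly coincided, while the citalopram arrays were the highest and the lowest of the 4. The log2 difference was 0.49 at day 3, a size that 1.17% of genes above the floor matched or exceeded, and -0.21 at day 7. Elovl5, which lengthens polyunsaturated chains, measured 10.74 and 10.67 in control and citalopram at day 3, and 10.68 and 10.50 at day 7. It was lower with citalopram at both days, by differences of -0.07 and -0.17, and its highest value was in untreated cells at day 3.

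The 4 desaturase genes were each higher with citalopram at day 3 and lower at day 7. Scd1, a stearoyl-CoA desaturase, measured 11.38 in control against 11.71 with citalopram at day 3, and 11.54 and 11.44 at day 7. Scd2, the stearoyl-CoA desaturase isoform known as the widely expressed one in mouse tissues, measured 12.48 and 12.74 at day 3, and 12.69 and 12.56 at day 7. In both genes the citalopram array at day 3 was the highest and the untreated array at day 3 the lowest.

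The log2 difference with citalopram was 0.32 at day 3 and -0.10 at day 7 for Scd1, and 0.26 and -0.13 for Scd2. Their relatives Scd3 and Scd4 were below the floor on all 4 arrays. In RefSeq's gene order Scd1 and Scd2 lie on the same chromosome with 1 protein-coding gene, Scd4, between them; the sources used here do not say whether the probes of such related genes tell their transcripts apart.

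Fads1 and Fads2 are desaturases of polyunsaturated chains whose genes lie side by side, with 0 protein-coding genes between them. Fads1 measured 12.09 in control against 12.36 with citalopram at day 3, and 12.31 and 12.16 at day 7. Fads2 measured 11.70 and 11.97 at day 3, and 11.92 and 11.64 at day 7. In each pair of arrays the order of control and citalopram turned over between the days. The log2 differences were 0.27 and -0.15 for Fads1, and 0.28 and -0.28 for Fads2, the most even reversal among the 10 genes.

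**Figure D1:**
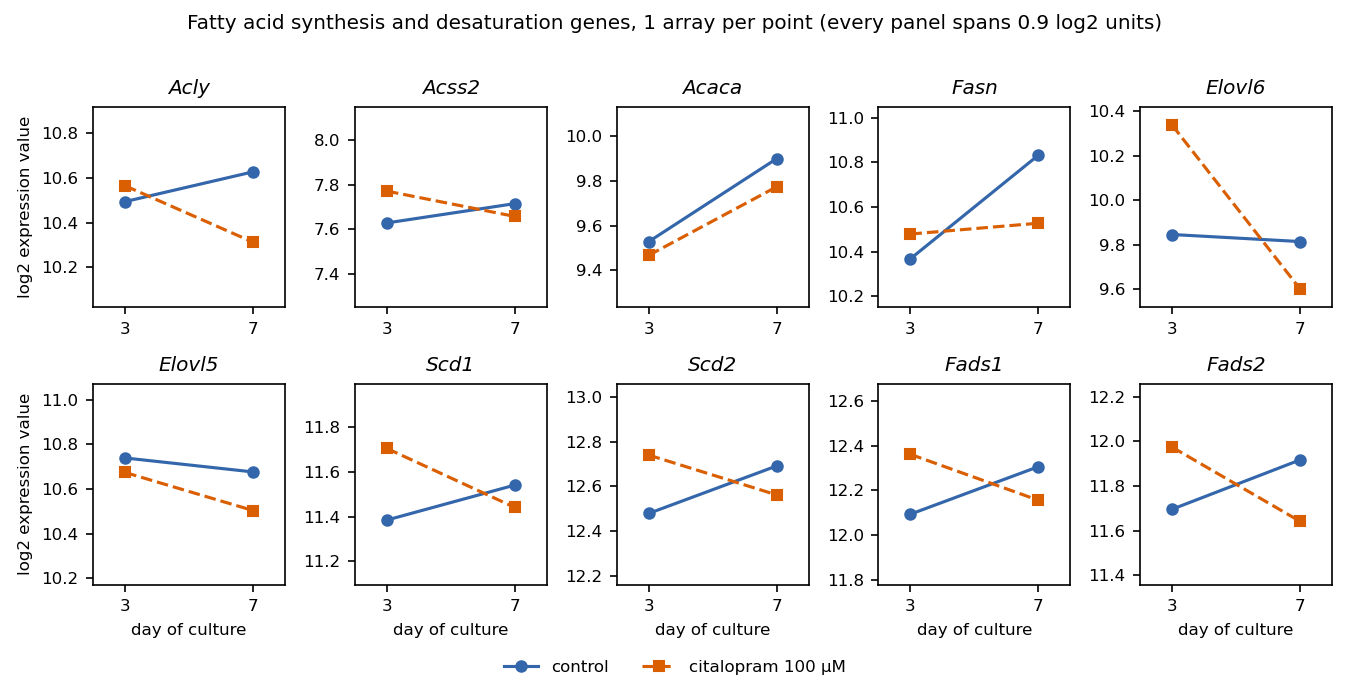
Log2 expression value of each of the 10 genes (vertical axes, each panel spanning 0.9 log2 units) at day 3 and day 7 (horizontal axis), with circles for control and squares for citalopram at 100 µM; each point is 1 array. The lines cross in 8 panels, and in the Acaca and Elovl5 panels citalopram lies below control at both days.

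Over the 4 arrays, the array with the highest value was citalopram at day 3 for 6 genes (Acss2, Scd1, Scd2, Elovl6, Fads1 and Fads2), control at day 7 for 3 (Fasn, Acaca and Acly) and control at day 3 for Elovl5. The lowest value was in control at day 3 for 5 genes (Fasn, Acss2, Scd1, Scd2 and Fads1) and in citalopram at day 7 for 4 (Acly, Elovl5, Elovl6 and Fads2). For Acaca it was in citalopram at day 3 by the brighter feature and in citalopram at day 7 by the dimmer one. The desaturases, Elovl6 and Acss2 were thus highest with citalopram early, and Acly, Acaca and Fasn were highest in untreated cells late. This grouping was made after the values were seen, and Elovl5 falls outside it. With 1 array per group, whether neighbouring values in these orders differ beyond their spread cannot be stated.

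At day 3, 8 of 10 members were higher with citalopram, against a share of 57.7% among the 12196 genes above the floor. Elovl6 was the only member at least 25% higher (5.01% of genes were), Scd1 lay just under that line at 24.9% higher, and 0 members were 1.5-fold higher (0.5% of genes were). The 5 genes of desaturation and palmitate elongation, Elovl6, Scd1, Fads2, Fads1 and Scd2, were between 0.26 and 0.49, and between 1.17% and 9.03% of genes were at least as high as each of them. The other members lay between -0.07 and 0.14. Of the 10 members, only Elovl6 lay outside the 5th to 95th percentile of all genes (-0.26 to 0.32). The median of all genes was 0.03.

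At day 7, 10 of 10 members were lower with citalopram, where 48.7% of 12167 genes were lower. None of the 10 was at least 20% lower, the same fold in the other direction (6.07% of genes were), and the differences ran from -0.32 to -0.06. The lowest were Acly (-0.32), Fasn (-0.30) and Fads2 (-0.28), and 6.35%, 6.81% and 8.19% of genes were at least as low as these. Hence the day 7 values were alike in direction and small in size, while those at day 3 spread more among the members (SD over the 10 genes 0.18 at day 3 and 0.09 at day 7). The median of all genes was 0.01.

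**Figure D2:**
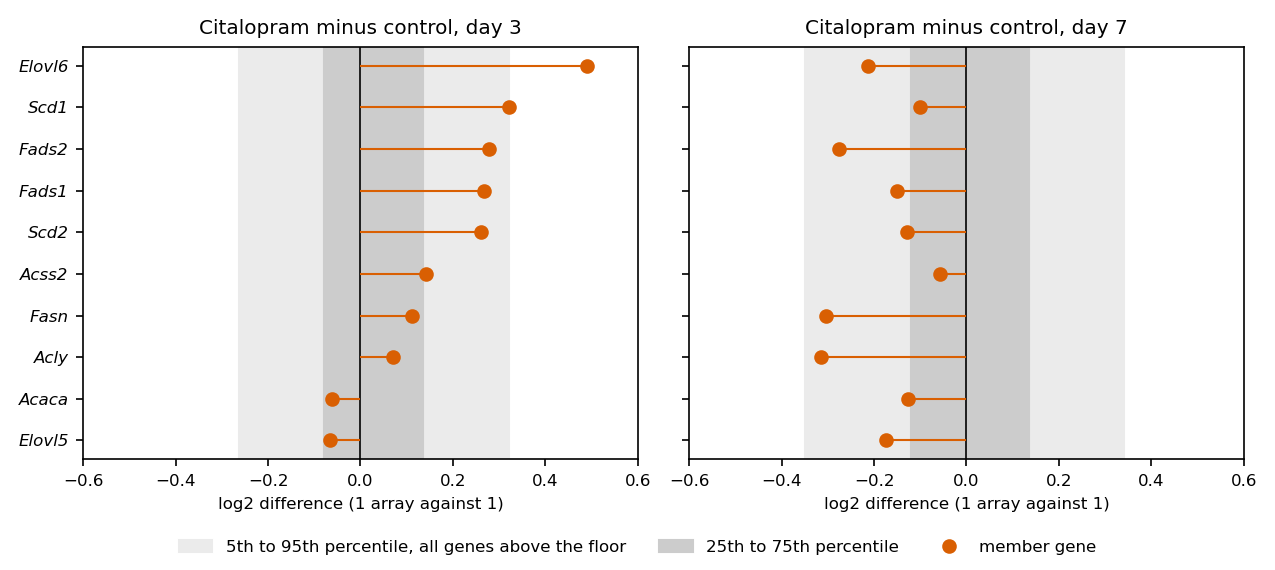
Log2 difference between citalopram and control (horizontal axes, 1 array against 1) for each of the 10 genes at day 3 (left) and day 7 (right), over shaded bands for the 5th to 95th and 25th to 75th percentiles of all genes above the floor. At day 3 Elovl6 (0.49) lies outside the wider band and the 4 desaturase genes inside its upper part; at day 7 all 10 genes lie left of 0 and inside the wider band.

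The citalopram differences at day 3 and day 7 rest on separate pairs of arrays. Being higher at day 3 and lower at day 7 applied to 8 of 10 members and to 26.7% of the 11952 genes that passed the floor at each day, and being lower at both days to the other 2 members (22.0% of genes). The difference at day 7 minus that at day 3 was negative for 10 of 10 members (54.8% of genes), with a median of -0.40 against -0.03 for all genes. As a ratio it was at least 20% lower for 7 of 10 members (10.9% of genes) and at least 1.5-fold lower for Elovl6 alone (-0.70; 1.77% of genes). Fads2 (-0.55), Scd1 (-0.42), Fads1 (-0.42) and Fasn (-0.42) followed, and Elovl5 (-0.11) and Acaca (-0.07) were nearest to 0, although Acaca was at -0.27 by the mean of its features and -0.47 by the dimmer one. The 4 arrays leave no residual to test this difference between the days.

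Between the untreated arrays, 8 of 10 members were higher at day 7 than at day 3, where 47.2% of 12201 genes were higher. Fasn (0.46) and Acaca (0.37), the enzymes of malonyl-CoA and palmitate synthesis, differed most and were the 2 members at least 25% higher (6.06% of genes were). The others ran from -0.06 in Elovl5 and -0.03 in Elovl6 to 0.22 in Fads2, and the median of the 10 was 0.18. Acss2 (0.09) turned to the other sign under quantile normalization and after centring each array on its median. After that centring, the median of all genes moved from -0.01 to -0.12 and the share of genes higher from 47.2% to 27.3%, and the members' median was 0.08.

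Between the citalopram arrays, 8 of 10 members were lower at day 7 than at day 3, where 55.8% of 12187 genes were lower. Elovl6 (-0.73) was 1.66-fold lower, the only member past 1.5-fold (2.81% of genes were), and Fads2 (-0.33) was the other one at least 20% lower (13.5% of genes were). The median of the 10 was -0.19. Acaca (0.31) and Fasn (0.05) were higher. Acaca was at 0.11 by the mean of its 2 features and -0.08 by the dimmer one, and Fasn turned to the other sign after centring on the median, under which all genes moved from -0.04 to -0.19 and 21.5% of genes were higher in place of 44.2%. With that centring the members' median was -0.35 and 7 of the 10 were at least 20% lower. These day comparisons share arrays with the citalopram comparisons above and are not separate evidence.

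limma was fitted to 12415 genes with additive terms for treatment and day, with 1 residual degree of freedom per gene. A gene's own spread is how far its effect differs between the pairs of arrays. The eBayes step of limma then moderates it toward a spread shared by all genes. The SEs (0.10 to 0.16 over the members) and p-values thus rest largely on that shared spread where the pairs differ little. For citalopram over both days, limma called 0 of 10 members (smallest adjusted p among them 0.839, in Elovl5) and 0 of all genes (0.0%), with 0 members and 9.01% of genes at an unadjusted p under 0.05. The fitted effects ran from -0.12 ± 0.12 (SE) in Acly to 0.14 ± 0.16 in Elovl6, since a difference that is positive at one day and negative at the other averages out. Fads2, with differences of 0.28 and -0.28, had a fitted effect of 0.00 ± 0.14. This fit does not address a difference between the days, and its missing calls do not show that the genes were unaltered.

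For day over both treatments, limma also called 0 of 10 members, where 2.8% of genes were called. Acaca was nearest, at 0.34 ± 0.10 (SE; adjusted p 0.119), higher at day 7 in both treatments by its brighter feature. Its dimmer feature was at 0.39 between the untreated and -0.08 between the citalopram arrays, and the mean of both gave an adjusted p of 0.273. Elovl6 followed at -0.38 ± 0.16 (adjusted p 0.232), made up of -0.03 between the untreated and -0.73 between the citalopram arrays. These 2 members had an unadjusted p under 0.05, as had 20.1% of genes. Fasn was at 0.26 ± 0.13 (adjusted p 0.304), higher at day 7 in both treatments. The calls depended on the scaling: limma called Acaca after quantile normalization (0.34; adjusted p 0.0485), where it called 12.4% of all genes, and Elovl6 after centring on the median (-0.51; adjusted p 0.00973), where it called 18.5%. With either scaling, 1 of 10 members is no more than the share of all genes.

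The other enzymes of the pathway were read from lists of genes above the floor, beside shares over all genes of 57.7% higher at day 3 and 48.7% lower at day 7. The counts of the supply, elongation and desaturation lists at day 3 were near that share. Of 7 genes of carbon and acyl-CoA supply, 4 were higher with citalopram at day 3 (median 0.09) and 5 lower at day 7 (median -0.14). Slc25a1, the mitochondrial citrate carrier that feeds Acly, was at 0.12 and -0.29, close to the course of Acly itself. Acsl4, which activates long polyunsaturated chains, was at 0.29 and -0.23. Bckdk, a kinase that also acts on ATP citrate lyase, was at -0.20 and -0.44, lower at both days, and was the 1 gene of this list at least 20% lower at day 7. Mid1ip1, an activator of acetyl-CoA carboxylase, was at 0.09 and 0.08.

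Of 9 other elongation genes, 6 were higher at day 3 (median 0.10) and 6 lower at day 7 (median -0.09). Elovl4, an elongase of very long chains, differed more at day 3 than any of the 10 members (0.59, the 1 gene of this list past 1.5-fold) and was at -0.05 at day 7. Tecr, which completes the elongation cycle, was at 0.17 and -0.25, and Elovl7 was higher at both days (0.21 and 0.42). Of 7 genes of other desaturases and their electron supply, 4 were higher at day 3 (median 0.05) and 5 lower at day 7 (median -0.06). Fads6 was at 0.18 and -0.27, but it lay near the floor (5.95 to 6.43) and below it with citalopram at day 7. Cyb5r3, a cytochrome b5 reductase, was at 0.25 and -0.06, and Cyb5b at -0.16 and -0.27. From day 3 to day 7, Cyb5r1, another reductase of this family, rose in limma's fit (0.57 ± 0.11, SE; adjusted p 0.0429); it is named after its value was seen, as the 1 gene of these lists that limma called.

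The 6 genes of mitochondrial fatty acid synthesis form a separate pathway that makes octanoate for lipoic acid. Of these, 3 were higher with citalopram at day 3 (median -0.02; 57.7% of all genes were) and 5 at day 7 (median 0.10; 51.3% of all genes were). Mecr was lower at both days (-0.28 and -0.15), while Acsf3 (-0.11 and 0.27) and Mcat (-0.05 and 0.18) were lower at day 3 and higher at day 7. The difference at day 7 minus that at day 3 was positive in 6 of 6 of these genes (45.2% of all genes) and negative in 10 of 10 members; whether the lists differ was not tested.

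**Figure D3:**
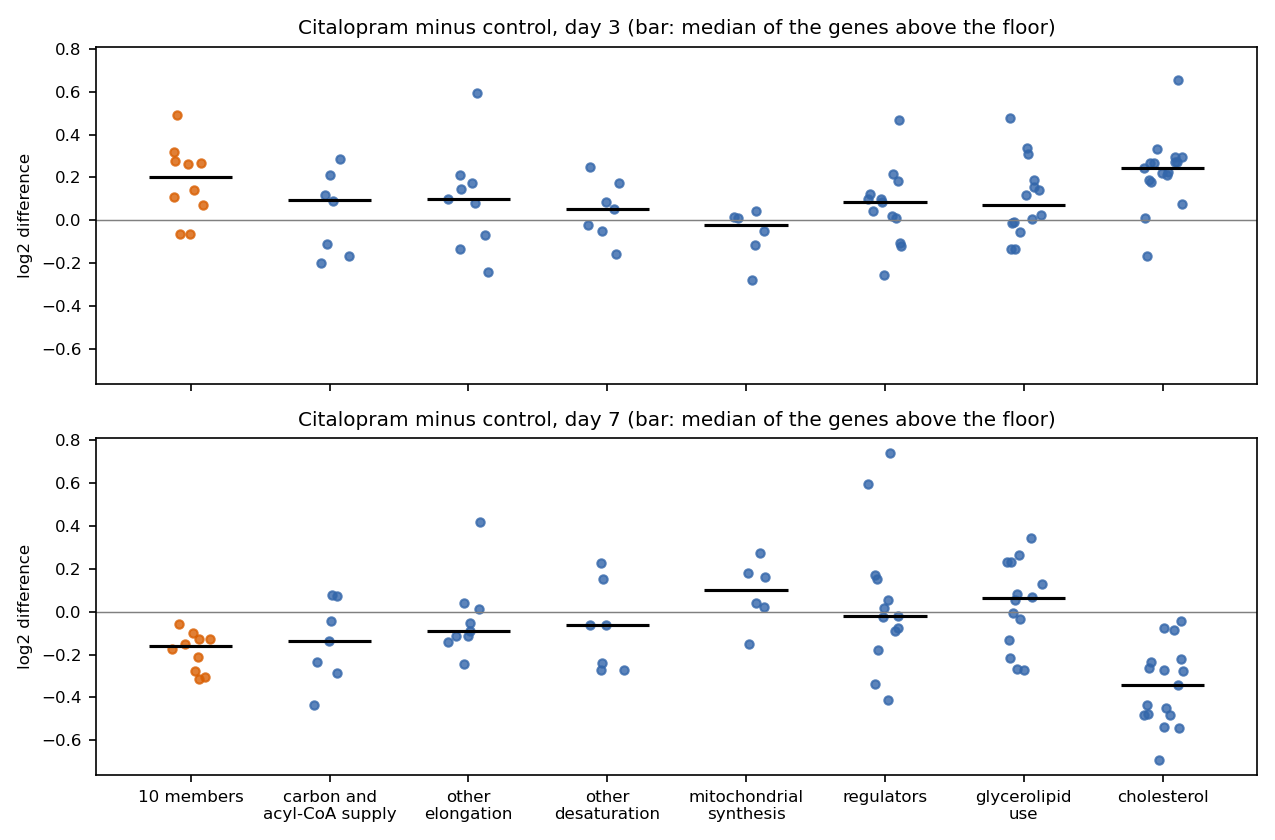
Log2 difference between citalopram and control (vertical axis) for the genes above the floor in each list (points, spread sideways only for legibility), at day 3 (top) and day 7 (bottom), with a bar at each median. The medians of the 10 members (0.20 and -0.16) and of the cholesterol list (0.24 and -0.34) change side between the days, and that of mitochondrial synthesis goes from -0.02 to 0.10.

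Among the regulators, Srebf2, the SREBP that favours cholesterol genes, measured 9.85 in control against 10.32 with citalopram at day 3, and 10.18 and 10.10 at day 7. Srebf1, the SREBP that favours fatty acid genes, measured 8.21 and 8.26 at day 3, and 8.54 and 8.45 at day 7. The citalopram difference was 0.47 and -0.08 for Srebf2, and 0.04 and -0.09 for Srebf1, so at day 3 the SREBP gene with the larger difference was the one that favours cholesterol genes. Insig1, an SREBP target that retains the SREBP complex in the endoplasmic reticulum, was at 0.22 and -0.34, and Insig2 at 0.18 and 0.01. Scap, the escort protein of SREBPs, was at 0.02 and -0.02.

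Nr1h3 (liver X receptor alpha), Mlxipl, which encodes the carbohydrate-responsive factor ChREBP, and the lipogenic gene Thrsp lay below the floor on all 4 arrays. Of 13 regulators above the floor, 10 were higher at day 3 (median 0.08) and 7 lower at day 7 (median -0.02). The 2 regulators past 1.5-fold at day 7, named after their values were seen, were Prkaa2, a catalytic subunit of the AMP-activated kinase that inhibits acetyl-CoA carboxylase (-0.10 at day 3 and 0.74 at day 7), and Trib3, a stress-induced pseudokinase (-0.26 and 0.60). limma called 0 of 13 for citalopram, with 1 regulator and 9.01% of all genes at an unadjusted p under 0.05.

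The genes of cholesterol synthesis, which share SREBP control, had the median nearest to that of the 10 members at day 3 among the metabolic lists read here. This did not hold at day 7. There the medians of supply (-0.14), other elongation (-0.09), other desaturation (-0.06) and regulators (-0.02) were nearer to that of the members than the cholesterol median was. Of 17 cholesterol genes above the floor, 16 went from higher with citalopram at day 3 to lower at day 7. The same turn was seen in 8 of 10 members and in 26.7% of all genes that passed the floor at each day. The medians were 0.24 and -0.34 for cholesterol genes and 0.20 and -0.16 for the members, and 9 of 17 cholesterol genes were at least 20% lower at day 7 against 0 of 10 members and 6.07% of all genes. Acly and Fasn lay just under that line, and after centring on the median 3 members passed it. Hmgcs1, at the head of the pathway, was at 0.27 and -0.23, Sqle at 0.27 and -0.27, and Idi1 at 0.21 and -0.69. Whether the lists differ was not tested, and neither count is independent of earlier results on these arrays.

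**Figure D4:**
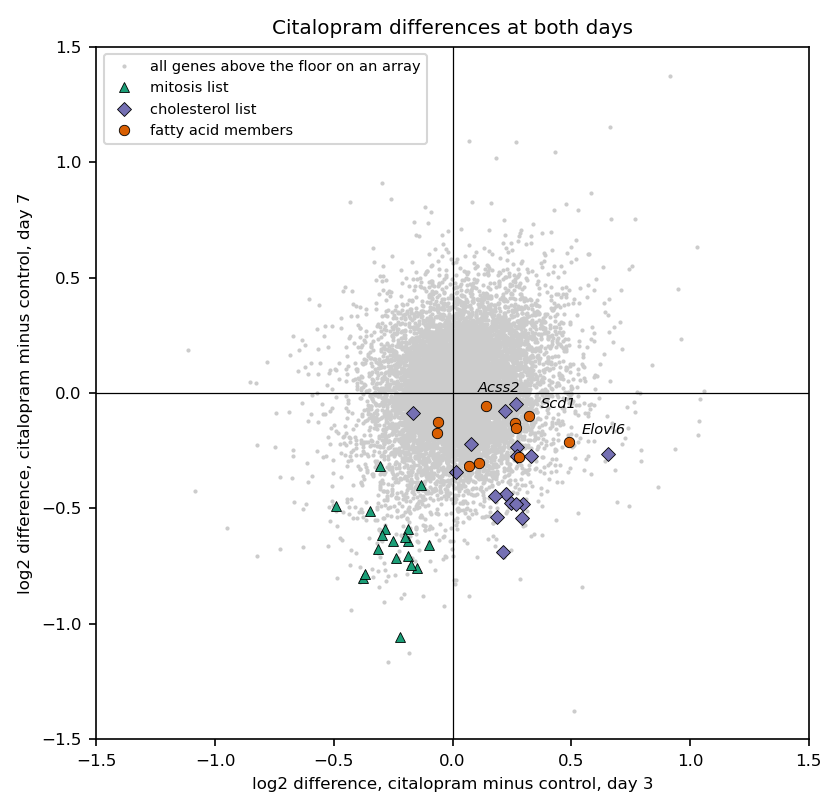
Log2 difference between citalopram and control at day 3 (horizontal axis) and day 7 (vertical axis), 1 array against 1 at each day, for all genes above the floor on an array (grey), the 10 members (circles), the cholesterol list (diamonds) and the mitosis list (triangles). The lower right quadrant holds 8 of the 10 members and 16 of 17 cholesterol genes, and 26.7% of all genes that passed the floor at each day. The 19 mitosis genes, listed because they moved with citalopram in an earlier look at these data, lie in the lower left.

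The mean of the 10 genes, each centred on its own mean, was -0.09 in control at day 3, 0.09 with citalopram at day 3, 0.09 in control at day 7 and -0.10 with citalopram at day 7. Among 11526 other named genes above the floor on an array, the 5 nearest to this profile by Euclidean distance over the 4 arrays were Mgst2 (distance 0.010), Anxa6 (0.016), Idh3g (0.017), Acaa2 (0.022) and Slc25a28 (0.022). Anxa6, an annexin that binds membranes, was at 0.20 at day 3 and -0.19 at day 7, and Acaa2, a thiolase of mitochondrial fatty acid oxidation, at 0.17 and -0.20. Mgst2 lay near the floor (5.96 to 6.15). The distances of the members themselves ran from 0.067 in Fads1 to 0.39 in Acaca and 0.44 in Elovl6. The distances rest on 4 values per gene, and the 5 nearest genes follow the course of the members because they were picked by it.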

How the data were processed

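Trizol-extracted total RNA was labelled with biotin for an Affymetrix array, per the labels' protocols. The authors deposited 1 log2 expression value for each feature on each array, between 3.90 and 15.5; this range is the basis for reading them as base-2 logarithms. Partek is named, with no version, per the submitters' processing notes. The sources used here do not state the background correction, normalization or summarization. Array medians were 6.50, 6.50, 6.60 and 6.66 (control and citalopram at day 3, then at day 7), and the precision is limited by how few arrays there are.

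Of 35556 features, 21789 carried 1 gene symbol, 1621 several and 12146 none; only the first kind named genes other than members. Entrez numbers matched RefSeq (GRCm38.p6) for 21698 features, and 0 symbols differed. Counts were taken over genes whose brighter array, of the 2 compared, was at or above that array's 40th percentile. Tests came from limma 3.58.1 in R 4.3.3 (lmFit, eBayes, two-sided, Benjamini-Hochberg over all 12415 genes, adjusted p threshold 0.05), tested on simulated data. Nothing says that arrays came from separate cultures, so p-values measure only the spread between these samples, which may be technical. In the additive fit that spread is how far an effect differs between the pairs of arrays, moderated by eBayes over all genes. Other steps used Python 3.11.15 with pandas 2.3.3 and numpy 2.4.6. Alternatives were other scalings, feature choices, filters and model terms.

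The members and lists were chosen with earlier results of these data known. Named genes were all members, the 3 genes of each pathway list with the largest citalopram difference at either day, set regulators (with Mid1ip1 of the supply list) and cholesterol genes, and the 5 genes of nearest profile.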

Additional observations from a re-analysis of the deposited data

Results flagged for a closer look

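In 8 genes the citalopram difference was positive at day 3 and negative at day 7. The difference at day 7 minus that at day 3 was -0.70 for Elovl6, -0.55 for Fads2, -0.42 for Scd1, -0.42 for Fads1, -0.42 for Fasn, -0.39 for Scd2, -0.39 for Acly and -0.20 for Acss2. Each side is 1 array against 1, the difference between the days was not tested, and 26.7% of genes above the floor had the same pair of signs.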

How the results depend on the processing

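The numbers of members higher at day 3 (8) and lower at day 7 (10) with citalopram, and the sign of the difference between the days in 10 of 10, were the same under quantile normalization, cyclic loess, centring each array on its median, the mean of all features of a gene, features with 1 symbol and members above the floor. The last 2 alter nothing, since 0 of 11 member features name several genes and all members are above the floor. Centring on the median left 3 members at least 20% lower with citalopram at day 7 (0 as deposited). It gave 1 member at least 25% higher from day 3 to day 7 in control (2 as deposited), with a median of 0.077 (0.18 as deposited), and 7 members at least 20% lower with citalopram (2 as deposited), with a median of -0.35 (-0.19 as deposited). That last count was 1 under quantile normalization and 1 under cyclic loess. limma called 1 member for day under quantile normalization and 1 after centring on the median, against 0 as deposited; the day calls over all genes were 1544, 1018 (cyclic loess) and 2294, against 348. For citalopram over both days limma called 0 members under all 8 alternatives, with smallest adjusted p from 0.729 to 1.00, while the genes called for citalopram numbered 139 after quantile normalization, 40 after cyclic loess and 103 after centring. Centring shifts every gene of an array by the same amount; the cause of the other moves was not tested. The additive fit already compares treatments within each day, no replicate numbers exist to pair by, and leaving out an array ends this fit.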

Other observations

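Genes that place acyl chains into glycerolipids gave counts near those of all genes. Citalopram exceeded control in 9 of 14 genes above the floor at day 3 (57.7% of all genes) and in 8 at day 7 (51.3%), with medians of 0.07 and 0.06, and 3 of 14 turned from higher to lower between the days (26.7% of all genes). Lpin1, a phosphatidate phosphatase, was higher at both days (0.48 and 0.23), as was Agpat4, an acyltransferase (0.31 and 0.34), whereas Dgat1, which completes triglycerides, was at 0.34 and -0.13. limma called 0 of 14 for citalopram over both days, with 2 at an unadjusted p under 0.05 and 1119 of 12415 genes at that level.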
